A study of Mus musculus with 3 samples.

Results

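Globins are the protein chains of hemoglobin, and the array carried 8 probes under 7 of the gene names Hba-x, Hba-a1, Hba-a2, Hbb-y, Hbb-bh1, Hbb-b1, Hbb-b2 and Hbb-bt. They were taken by these names from the 55681 non-control probes, which carry 36163 names. Hbb-y had 2 probes and the other names 1 each, and no probe was written Hbb-bt. Each of the 8 was a single spot on each array, well above background on all 3 arrays and saturated on none.

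RNA came from yolk sac cells sorted as positive for VE-cadherin, an endothelial junction protein, and for CD45, a blood cell surface protein. The 2 Tie-2-Etv2 samples, replicates 1 and 2, carried a transgene for the ETS factor Etv2 that a Tie-2-Cre transgene had turned on. The Tie-2 (Tek) promoter is active in endothelium and in blood cells that arise from it, so the transgene was not limited to red cell precursors. The single control sample is labelled control without further genotype and came from E10.5 embryos, while the stage of the Tie-2-Etv2 embryos is not given. All samples share a mixed strain background of B6, CBA and others, and received no treatment after sorting. The labels do not say whether embryos were pooled or whether the replicates are separate litters, so the p-values rest on a spread among samples that may be technical. Etv2 itself had levels (log2, defined below) of -0.41 and -1.62 in the Tie-2-Etv2 samples, against -4.84 in the control, a log2 difference of 3.82 ± 0.62 (SE, adjusted p = 0.237 in limma's fit).

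Hemoglobin is a tetramer of alpha-type and beta-type chains. In the mouse the alpha-type genes lie in a cluster on chromosome 11, with Hba-x, the embryonic zeta chain, ahead of the adult genes Hba-a1 and Hba-a2. The beta-type genes lie on chromosome 7, with the embryonic Hbb-y (epsilon y) and Hbb-bh1 (beta H1) ahead of the adult genes. Primitive red cells of the yolk sac make the embryonic chains together with adult alpha chains, and adult beta chains come to dominate in definitive red cells. Inbred strains differ at the adult beta genes: C57BL/6 carries the single haplotype with Hbb-bs and Hbb-bt, and other strains the diffuse haplotype with Hbb-b1 and Hbb-b2. The RefSeq table assigns the transcript of the Hbb-b1 probe to Hbb-bt, and the Hbb-b2 probe is listed as unmapped on build mm9. The haplotype of the samples is not in the labels.

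Of the 8 probes, 4 lie within the body of the transcript and are open in a reading frame over all 60 bases. They are shown because they cover each class of chain, in the strand of the transcript:
Hba-x, chr11:32177668-32177727 (mm9), transcript bases 258 to 317: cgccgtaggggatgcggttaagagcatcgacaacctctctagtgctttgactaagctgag
Hba-a1, chr11:32183955-32184014 (mm9), transcript bases 161 to 220: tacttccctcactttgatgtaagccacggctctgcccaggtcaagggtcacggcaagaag
Hbb-y, chr7:111000448-111000507 (mm9, minus strand), transcript bases 379 to 438: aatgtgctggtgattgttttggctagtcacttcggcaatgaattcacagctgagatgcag
Hbb-b2, unmapped on mm9, transcript bases 195 to 254: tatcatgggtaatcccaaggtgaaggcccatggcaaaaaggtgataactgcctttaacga
The other 4 probes start nearer the end of their transcripts, at bases 497 (Hba-a2), 493 (Hbb-bh1), 503 (Hbb-b1) and 559 (the other Hbb-y probe), and 2 of them, Hba-a2 and the Hbb-y probe at base 559, hold the polyadenylation signal AATAAA. The files list the transcripts of both Hba-a1 and Hba-a2 under each adult alpha probe, so the 2 genes cannot be told apart. Whether the adult beta probes also bind each other's transcripts was not tested.

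On these arrays the alpha-type and the embryonic beta-type globins were lower in both Tie-2-Etv2 samples than in the control, by like amounts, and the adult beta-type globins were not. All 6 probes of the first kind were at least 2-fold lower on both Tie-2-Etv2 arrays, a pattern shared by 6.26% of the 26217 tested probes. They were 4.38-fold to 5.61-fold lower on replicate 1 and 3.33-fold to 4.12-fold lower on replicate 2. None of the 8 was 2-fold higher on both arrays, against 3.82% of tested probes. At an adjusted p threshold of 0.05 limma called 0 of the 8, and 0% of all tested probes. At an unadjusted p under 0.05 it called 6 of the 8, all lower, where 10.4% of tested probes were called in either direction and 6.02% as lower. The fit had 1 residual degree of freedom, given by the transgenic replicates, and took the control to have the same spread. With normexp background correction 7 of the 8 probes passed, all but Hbb-b2, where 2.67% of tested probes passed and each had the same standard error. In sorted bulk RNA, fewer cells of a type and less RNA per cell cannot be told apart.

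Levels below are log2 processed signal minus the 75th percentile of the detected probes of the same array, and they compare arrays, not probes. Hbb-y makes the main embryonic beta-type chain. Its probe at base 379 had levels of 1.87 and 2.31 in the Tie-2-Etv2 samples, against 4.35 in the control. Both Tie-2-Etv2 levels lay below the control, replicate 1 the lower. The log2 difference was -2.27 ± 0.37 (moderated SE, n = 2 against 1), and limma gave it an adjusted p of 0.242. Its probe at base 559 had levels of 2.30 and 2.78 in the Tie-2-Etv2 samples, against 4.65 in the control, and a log2 difference of -2.11 ± 0.38 (adjusted p = 0.253 in limma's test). The probes of this gene, 180 bases apart on the transcript, gave the same order of arrays.

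Hbb-bh1, the other embryonic beta-type gene, had levels of 1.08 and 1.73 in the Tie-2-Etv2 samples, against 3.54 in the control. Again replicate 1 was the lower of the pair and neither reached the control. The log2 difference was -2.14 ± 0.43, and the adjusted p was 0.269 in limma's test. Hba-x, the embryonic alpha-type gene, had levels of -0.69 and -0.24 in the Tie-2-Etv2 samples, against 1.75 in the control. It had a log2 difference of -2.21 ± 0.37 (adjusted p = 0.245 in limma's test), a value between those of the Hbb-y probes; the genes lie on different chromosomes.

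The adult alpha genes encode the chain that replaces zeta. The Hba-a1 probe had levels of -0.81 and -0.40 in the Tie-2-Etv2 samples, against 1.49 in the control, a log2 difference of -2.09 ± 0.37. The Hba-a2 probe had levels of 1.89 and 2.28, against 4.02 in the control, a log2 difference of -1.93 ± 0.36. Both were lower on each Tie-2-Etv2 array than in the control (adjusted p of 0.248 and 0.259 in limma's test). Replicate 1 was again the lower of the pair.

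**Figure D1:**
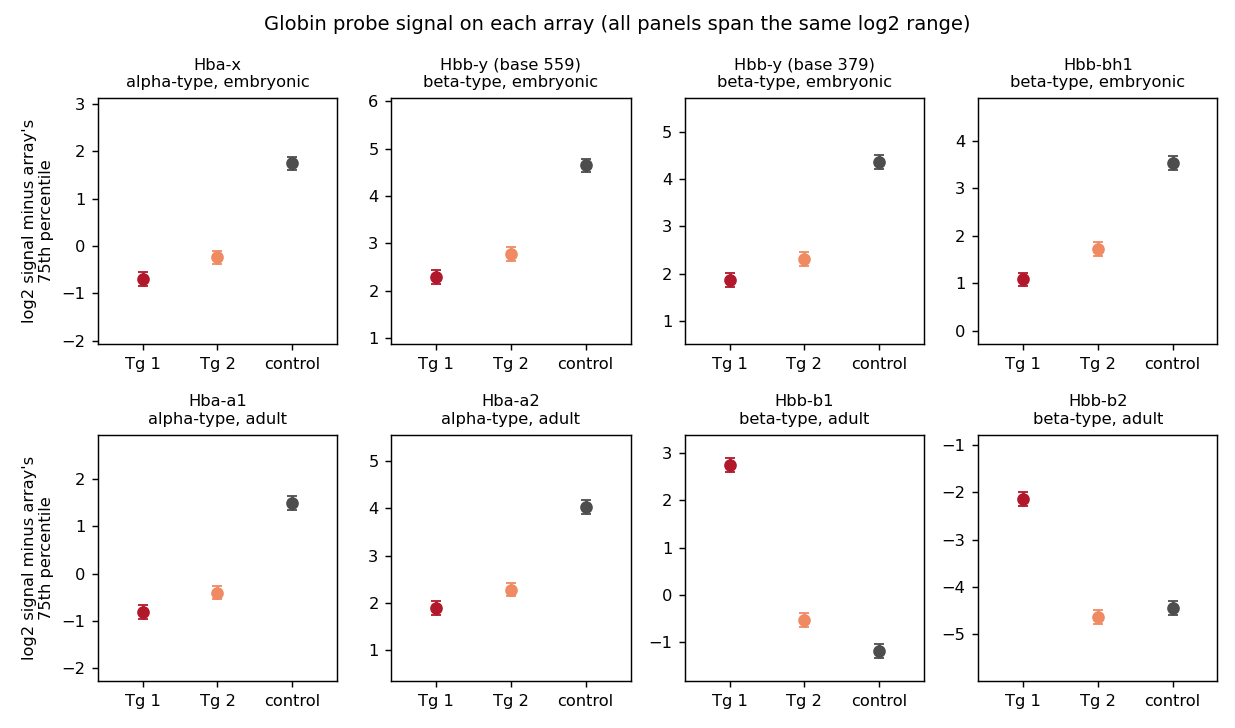
Level of each globin probe (log2 signal minus the array's 75th percentile) on Tie-2-Etv2 replicates 1 and 2 (Tg 1, Tg 2) and the control array. Points are single spots, bars are the extraction software's error estimate, and every panel spans the same log2 range. In 6 panels both Tie-2-Etv2 points lie below the control; in the Hbb-b1 panel both lie above it, and in the Hbb-b2 panel only replicate 1 does.

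The adult beta-type genes stood apart. Hbb-b1 had a level of 2.75 on replicate 1 and -0.53 on replicate 2, against -1.18 on the control array. Replicate 1 was 15.2-fold above the control and replicate 2 was 1.56-fold above it. The log2 difference of 2.29 ± 1.47 was given an adjusted p of 0.745 by limma, and without replicate 1 it was 0.64. Hbb-b2 had levels of -2.14 and -4.63 in the Tie-2-Etv2 samples, against -4.44 in the control. Replicate 1 was 4.94-fold above the control, and replicate 2 lay 0.18 below it on the log2 scale, so the groups overlapped. Its log2 difference of 1.06 ± 1.13 (adjusted p = 0.893 in limma's test) turned to -0.18 without replicate 1.

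For adult beta globin the Tie-2-Etv2 samples differed widely from each other. Replicate 1 exceeded replicate 2 by 3.28 for Hbb-b1 and by 2.49 for Hbb-b2 on the log2 scale. Of all tested probes, 0.458% had a pair difference as large as that of Hbb-b1 and 1.36% as large as that of Hbb-b2. For the other 6 globin probes replicate 1 was the lower of the pair, by 0.39 (Hba-a2) to 0.65 (Hbb-bh1), where the median absolute pair difference over tested probes was 0.321. The extraction software's own error for a difference between 2 spots was 0.20 to 0.22 on this scale for the 8 probes, which is more than the Hbb-b2 difference of replicate 2. This error covers a spot's signal and not the sorting or labelling of a sample.

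**Figure D2:**
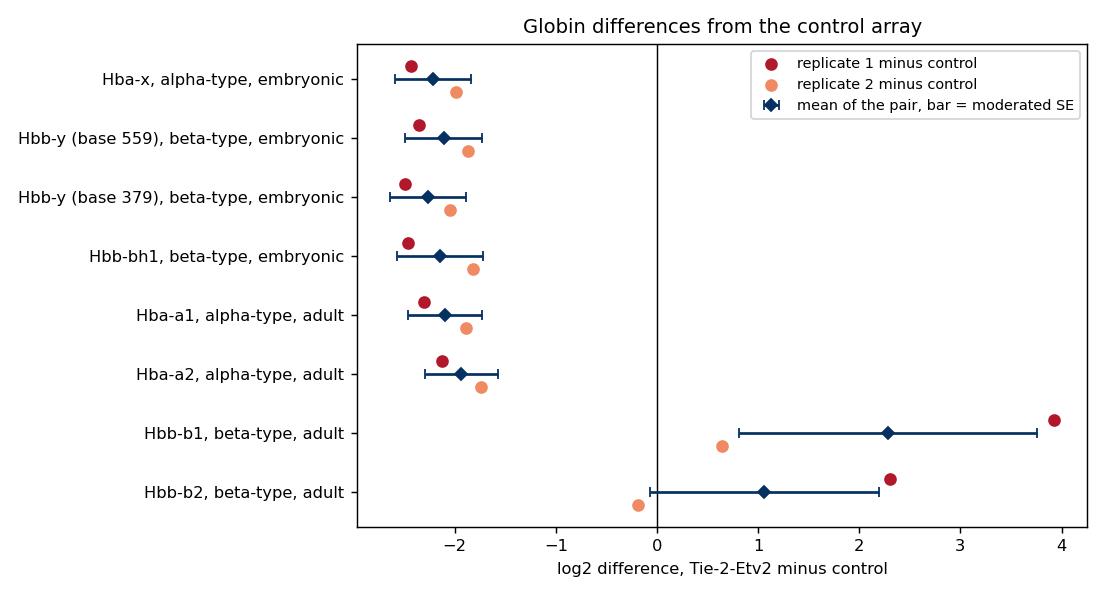
Log2 difference from the control array for each globin probe, for replicate 1, replicate 2 and their mean with its moderated standard error. The 6 alpha-type and embryonic beta-type probes lie between -2.49 and -1.74 on either replicate, while Hbb-b1 lies at 3.93 and 0.64 and Hbb-b2 at 2.31 and -0.18.

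How the classes stood against one another was measured within each array, as the mean level of one class minus that of another, and only its difference from the control array is given. Embryonic beta minus embryonic alpha differed by 0.0022 on replicate 1 and 0.076 on replicate 2. Adult alpha minus embryonic alpha differed by 0.22 and 0.17, and the Hbb-y probe at base 379 minus that at base 559 by -0.14 and -0.18. These shifts are no larger than the error of a pair of spots, or close to it. Adult beta minus embryonic beta differed by 5.55 on replicate 1 and 2.14 on replicate 2. The adult probes thus lay higher relative to the embryonic probes in both Tie-2-Etv2 samples than in the control. On replicate 2 this came mostly from the embryonic beta probes, at log2 differences of -2.04 to -1.82, with Hbb-b1 at 0.64 and Hbb-b2 at -0.18. The stage of the Tie-2-Etv2 embryos is not given, so stage and transgene cannot be told apart in this contrast. The exact permutation test of the adult beta contrast, two-sided over the 3 arrays, gave p = 0.667. The smallest p it can give is 0.333, and over the 4 contrasts the adjusted p was 0.667 for each.

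The sequences ahead of some of these genes were searched for letters they share, whichever way their levels differed. Below are the 250 bases upstream of the start of 4 genes, from RefSeq on build GRCm38.p6, printed 5′ to 3′ along each gene. They are an embryonic and an adult gene of each cluster, 3 from genes whose probes were lower and 1, Hbb-bt, from the gene of the Hbb-b1 probe:
Hba-x, chr11:32276350-32276599, plus strand: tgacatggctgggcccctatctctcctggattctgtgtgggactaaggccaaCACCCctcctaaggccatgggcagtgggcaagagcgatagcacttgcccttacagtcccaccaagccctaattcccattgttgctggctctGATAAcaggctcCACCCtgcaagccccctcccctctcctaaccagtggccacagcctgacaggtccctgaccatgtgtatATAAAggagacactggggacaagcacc
Hba-a1, chr11:32283422-32283671, plus strand: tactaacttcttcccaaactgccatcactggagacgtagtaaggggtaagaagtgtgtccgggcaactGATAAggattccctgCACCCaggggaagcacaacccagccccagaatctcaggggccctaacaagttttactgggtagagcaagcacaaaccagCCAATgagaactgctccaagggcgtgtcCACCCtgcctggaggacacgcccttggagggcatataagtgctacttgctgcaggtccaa
Hbb-y, chr7:103853208-103853457, minus strand: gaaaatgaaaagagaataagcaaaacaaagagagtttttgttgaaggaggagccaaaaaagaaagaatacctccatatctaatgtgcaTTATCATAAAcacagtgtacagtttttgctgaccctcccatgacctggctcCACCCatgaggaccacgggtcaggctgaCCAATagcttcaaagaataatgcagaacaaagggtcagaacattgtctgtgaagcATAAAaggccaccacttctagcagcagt
Hbb-bt, chr7:103813924-103814173, minus strand: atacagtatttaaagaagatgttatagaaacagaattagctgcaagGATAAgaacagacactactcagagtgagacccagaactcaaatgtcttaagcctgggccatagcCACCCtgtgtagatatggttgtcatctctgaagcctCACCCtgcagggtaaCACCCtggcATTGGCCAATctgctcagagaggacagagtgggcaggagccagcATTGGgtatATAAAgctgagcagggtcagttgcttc
Capitals mark matches, on either strand, to GATAA (the core bound by GATA factors), CACCC (bound by Klf1 and its relatives), CCAAT, and ATAAA (part of a TATA box). No matches overlapped one another. Hba-a2 has the same sequence as Hba-a1 over a run of 247 bases. All 5 globin promoters matched, Hba-a2 included, held GATAA and CACCC, where 22.6% and 52.0% of 32851 promoters of the same length held each. No promoter sequence of Hbb-bh1 was available and that of Hbb-b2 was not searched, so the counts do not cover these genes. Hba-a1 and Hba-a2 are near copies and do not count as separate sequences.

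Matches to CCAAT were found in 4 of the 5 (33.8% of all promoters) and to ATAAA in 3 of the 5 (37.3%). The printed Hba-a1 window holds tataag, which ATAAA does not match, so the lack of a match does not mean the lack of a TATA box. In Hbb-y the CACCC match began 111 bases and the CCAAT match 83 bases upstream of the start. In Hbb-bt, CACCC began 140, 104 and 89 bases upstream and ATAAA 27 bases upstream, the same distance as in Hba-x. The letters CGGAAG, a strict form of the site recognised by ETS factors such as Etv2, were in 0 of the 5 windows and in 13.6% of all promoters. The shorter GGAA within such sites was not counted. The printed Hba-a1 window holds it, and the printed Hba-x window holds it on the other strand (TTCC). The matches are letters in a window and were not tested as binding sites; the promoter whose gene was higher on replicate 1 and those of the lower genes both held the GATA and CACCC letters.

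Genes beside the alpha cluster were not lower by 2-fold. Within 200 kb on either side, a window chosen after the globin values were seen, 11 probes were tested: 0 were at least 2-fold lower on both Tie-2-Etv2 arrays and 1 (Il9r) was at least 2-fold higher on both. In all, 10 of the 11 were higher on both by any amount, as were 42.5% of all tested probes. Nprl3, a regulator of mTORC1 whose introns hold the enhancers of the alpha globin genes, was higher by 0.40 (replicate 1) and 0.17 (replicate 2) in log2 units with 1 of its probes, 44.79 kb ahead of the Hba-x probe. Mpg, a DNA repair glycosylase gene, was at 0.47 and 0.08 with the probe at 45.76 kb and at -0.089 and 0.22 with that at 49.78 kb. Snrnp25, a component of the minor spliceosome, was at 0.89 and 0.53 with the probe at 68.95 kb. None of these differences passed limma's test. Around and within the beta cluster, 32 of the 34 probes other than those of the members were not well above background on any array. Most of them were for olfactory receptors, and those within the cluster were for Hbb-bh2 and Hbb-bs.

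**Figure D3:**
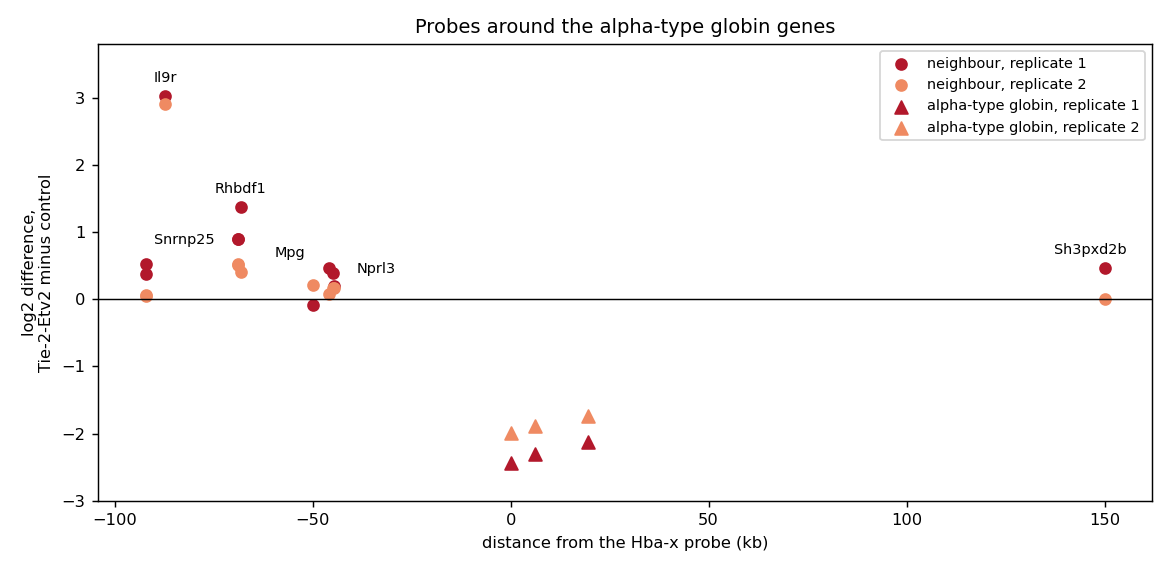
Log2 difference from control of the tested probes around the alpha-type globin genes, against distance from the Hba-x probe in kb, for replicates 1 and 2. The 3 globin probes (triangles) lie between -2.44 and -1.74 and the neighbours (circles) near or above 0; Il9r was not well above background in the control, so its difference is as measured only.

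Other hemoglobin genes were at or near background. Hbq1a, Hbq1b, Hbb-bh2 and Hbb-bs, with 6 probes in all, were not well above background on any array. The Hbb-bs probe starts at base 4 of its transcript, and its processed signal was 11.3 and 11.1 intensity units in the Tie-2-Etv2 samples, against 13.6 in the control. Ahsp, a chaperone that binds free alpha chains, had levels of -4.69 and -4.96 in the Tie-2-Etv2 samples, against -2.86 in the control. Both Tie-2-Etv2 samples were below the control, 3.56-fold on replicate 1 and 4.29-fold on replicate 2, the reverse of the replicate order of the alpha globins (log2 difference -1.97 ± 0.34, adjusted p = 0.247 in limma's test). Hp, which encodes haptoglobin, the plasma protein that captures free hemoglobin, had levels of -1.06 and 1.78, against 1.82 in the control, so that only replicate 1 was far below.

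Genes that serve hemoglobin making were described by lists, with 1 probe a gene, beside a background of 6.64% of 19583 tested genes at least 2-fold lower and 3.92% at least 2-fold higher on both arrays. Of 20 heme synthesis and iron entry genes, all tested, 3 were lower and 0 higher by this measure, with a median log2 difference of -0.41. The median over all tested genes was 0.067. Alas2, the red cell form of the rate-limiting enzyme of heme synthesis, had levels of -5.56 and -4.64 in the Tie-2-Etv2 samples, against -2.94 in the control, a difference of -2.16 ± 0.51. Hmox1, which breaks heme down and is also in the macrophage list, had levels of -1.68 and -2.05, against 1.27 in the control, a difference of -3.13 ± 0.36. Tfrc, the transferrin receptor through which red cell precursors take up iron, differed by 0.10 on replicate 1 and 0.43 on replicate 2, and Urod, an enzyme of the same pathway, by 0.26 and 0.14. The other 2 Tfrc probes had mean log2 differences of -0.17 and -0.33, opposite in sign. Alas2 was thus of globin size, and the list's median was not.

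Of 30 red cell membrane and enzyme genes 22 were tested, of which 5 were at least 2-fold lower and 2 at least 2-fold higher on both arrays. The median log2 difference of the 22 was -0.28, and the medians taken within each replicate were -0.033 (replicate 1) and -0.48 (replicate 2). Of the 5 lower genes, 3 (Add2, Kel and Rhd) were well above background in the control only and entered the test through it, and the other 2 were Slc4a1 and Tspan33. Slc4a1, which encodes the anion exchanger band 3, had levels of -4.91 and -4.67 in the Tie-2-Etv2 samples, against -2.97 in the control. Its difference of -1.81 ± 0.34, and that of Tspan33, a tetraspanin gene of red cell precursors, at -2.09 ± 0.37, were of globin size. Car2, which encodes carbonic anhydrase 2, was at 3.50 on replicate 1 and 2.21 on replicate 2, and Xk, a membrane protein gene, at 1.35 and 1.04. Several genes that define mature red cells were dim: Ank1, Epb42, Sptb and Trim10 were well above background on no array.

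Of 32 regulators of the globin loci 31 were tested, with 1 at least 2-fold lower and 3 at least 2-fold higher on both arrays and a median log2 difference of 0.26. Gata1, the main GATA factor of red cells, had levels of -1.19 and 0.72 in the Tie-2-Etv2 samples, against -0.11 in the control. Its Tie-2-Etv2 values lay on either side of the control, replicate 1 below it and replicate 2 above it. Klf1, an activator of adult beta globin, had levels of -6.80 and -5.39, against -4.72 in the control, and on replicate 1 it was not well above background. Gata2, the progenitor GATA factor, had log2 differences of 2.38 and 1.68, Gfi1b, a repressor needed for red cell and platelet formation, of 1.78 and 1.58, and Myb, a factor of definitive progenitors, of 1.21 and 1.04. Klf2, a factor that in the mouse acts on embryonic beta-type globin genes, was at -2.50 and -1.53, and Bach1, a heme-sensing repressor of globin genes, at -1.11 and -0.94. Bcl11a, the repressor that silences embryonic beta-type globins in definitive cells, had levels of 0.84 and -0.09, against -0.74 in the control, and Sox6, its partner, was not well above background on any array. The Tie-2-Etv2 replicate 1 level was the highest of the 3 for Bcl11a, as for Hbb-b1. It was also the highest for Gata2, Gfi1b, Myb and others of the list, among them Tal1, Lmo2 and Ikzf1. Lyl1 and Nfe2 were highest on replicate 2, and Klf2 and Bach1 in the control. The order was thus not particular to Bcl11a, and a link to Hbb-b1 was not tested. None of these regulators passed limma's test, with adjusted p between 0.268 (Gfi1b) and 0.986 (Gata1).

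**Figure D4:**
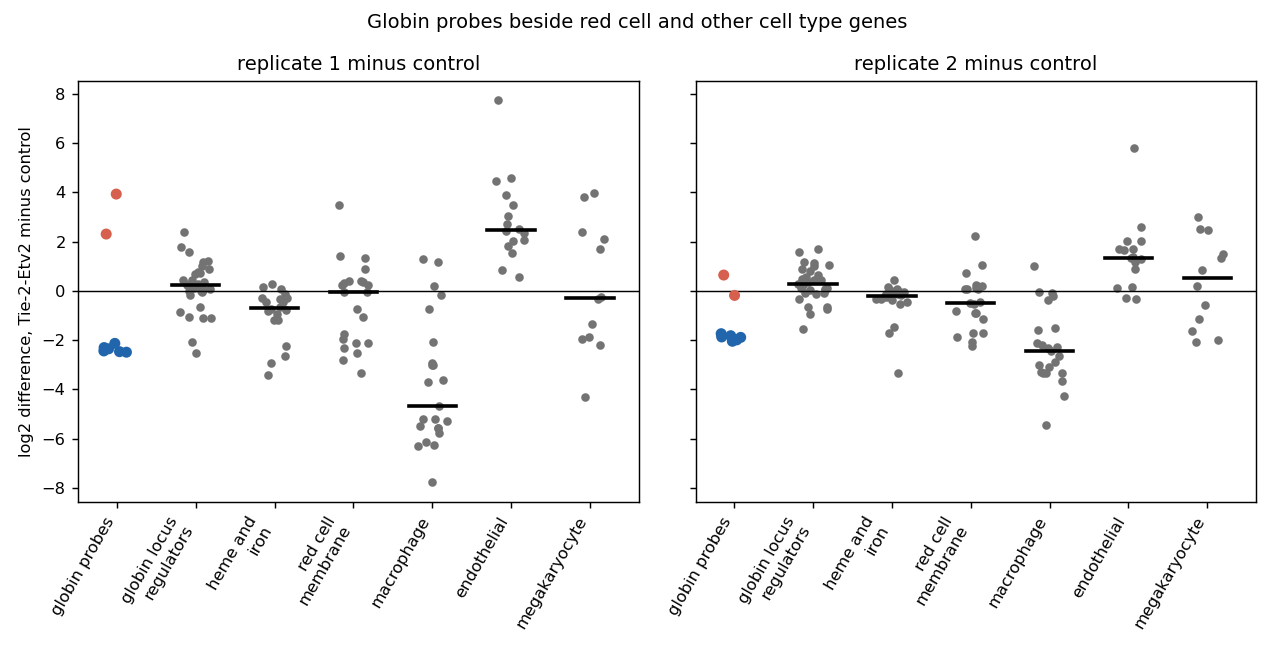
Log2 difference from control on replicate 1 (left) and replicate 2 (right), with a point for each globin probe (adult beta-type in red, the others in blue) and for each tested gene of the lists named on the axis (grey), as measured, and a line at each list's median. On both panels the 6 blue points lie together below 0, between -2.49 and -1.74, while heme and red cell membrane genes spread around medians of -0.68 and -0.033 on replicate 1 and -0.19 and -0.48 on replicate 2.

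Marker genes of other cell types also differed between the Tie-2-Etv2 samples and the control. Of 26 macrophage genes 23 were tested and 18 were at least 2-fold lower on both arrays, 1 higher. The summed scaled signal of the tested genes was 26.04 and 35.3 in the Tie-2-Etv2 samples, against 113.7 in the control. Of the 3 not tested, Siglec1 and Spic were not well above background on any array. The other, Cd163, was well above background on replicate 1 only, at -3.56, against -9.79 on replicate 2 and -9.51 in the control. Of the 18, 2 (Marco and Timd4) entered through the control alone, and 14 were well above background on all 3 arrays. Of 17 endothelial genes 16 were tested and 11 were at least 2-fold higher and 0 lower, with summed signals of 54.5 and 26.8, against 11.3 in the control. Of the 11, 2 (Sox17 and Sox18) were not well above background in the control. Of 12 megakaryocyte and platelet genes, all tested, 5 were higher and 4 lower, with sums of 14.2 and 9.10, against 8.12 in the control. Of the 4, 1 (Gp6) entered through the control alone. The sums weigh the brightest probes most. Among these were Egfl7 of the endothelial list (levels 5.39 and 4.42, against 3.06 in the control) and Apoe of the macrophage list (3.94 and 3.36, against 3.73). Among macrophage genes detected on all 3 arrays and of 1 sign on both replicates, the lowest were Adgre1 (F4/80), at -6.13 (replicate 1) and -4.28 (replicate 2) in log2 units, and C1qb, a complement component, at -6.27 and -3.03; Lyz2, which encodes lysozyme, was at 1.15 and 1.01. Among endothelial genes Esam, an adhesion molecule gene, was at 3.87 and 2.04. Among megakaryocyte genes Mmrn1 (multimerin 1) was at 3.97 and 2.997 and Clec1b, a platelet receptor gene, at 3.82 and 2.50, while Pf4 (platelet factor 4) was at -1.88 and -1.64 and Vwf (von Willebrand factor) at -1.33 and -1.13. None of these list genes passed limma's test. Cdh5, which encodes VE-cadherin, was 22.1-fold and 6.05-fold higher and Ptprc, which encodes CD45, 1.34-fold and 1.41-fold lower. The part of these shifts in the globin values was not tested.

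The genes whose differences lay nearest to those of a globin class were found by Euclidean distance over the 2 log2 differences, among 17198 non-member names detected on all 3 arrays. Nearest to the mean embryonic globin (-2.44 on replicate 1, -1.93 on replicate 2) were Slc35f6, a solute carrier gene, at a distance of 0.041, and Cadm1, an adhesion molecule gene, at 0.049. Tspan33 at 0.14 and Slfn2, a schlafen family gene, at 0.15 were also among the nearest 5, the other being an unnamed transcript. Nearest to the mean adult beta globin (3.12 and 0.23), besides 2 unnamed transcripts, were Nos3, the nitric oxide synthase of endothelium, at 0.26, E330032C10Rik at 0.30, and Procr, the endothelial protein C receptor, at 0.31. Nos3 differed by 2.88 and 0.33 and Procr by 3.27 and 0.50. With 2 differences a name, likeness of this kind describes these arrays only.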

How the data were processed

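Total RNA of 3 sorted samples (2 Tie-2-Etv2, 1 control) was labelled with Cy3 and hybridised to 1-colour Agilent arrays of design 028005, all on 1 slide and from 1 scan. The deposited scanner files hold an intensity per spot that Agilent Feature Extraction had background-subtracted (version 10.7.3.1 per the file headers, 10.7 per the submitters' processing notes), not scaled between arrays. The deposited table of log2 values matched the log2 processed signal within 0.01, apart from a constant per array, in 100% of 55668 probes and was centred by row on the median of the arrays (column medians 0.14, 0 and 0); it served as an alternative.

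Control spots and outlier spots (168 to 174 an array) were left out, and replicate spots averaged. Fewer than 50% of probes exceeded background clearly (24226 and 27027 probes in Tie-2-Etv2 replicates 1 and 2, 25466 in the control), so the 75th percentile was taken over the 22764 probes detected on all 3 arrays; it was 1199 and 2092 intensity units in the Tie-2-Etv2 samples and 2073 in the control. Probes well above background in the control or on both Tie-2-Etv2 arrays entered limma 3.58.1 (lmFit, eBayes; R 4.3.3), two-sided, with Benjamini-Hochberg adjustment and a threshold of 0.05, and the fit was tested on simulated data. Differences are Tie-2-Etv2 minus control. Globins were taken by the names in the files; other probes were named through a RefSeq table (GRCm38.p6) by accession (26582), symbol (2602) or synonym (492), while 26005 kept the files' name. A gene of a list was represented by the tested probe whose 2 group means averaged highest.

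The members and gene lists were chosen with earlier results of these data known. The rule for named genes took all globin probes; per list, the 2 highest and 2 lowest genes detected on all 3 arrays with the same sign in both replicates; Gata1, Klf1, Alas2, Bcl11a, Sox6, Myb and Ahsp; and the 5 genes nearest to each globin pattern. Neighbours of the loci, genes at background and the sort markers were named after their values were seen. The alternatives were normexp background correction (offset 50), other scaling, other filters on dim probes, the deposited table and leaving out each Tie-2-Etv2 replicate. The number of arrays limits the precision.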

Additional observations from a re-analysis of the deposited data

How the results depend on the processing

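The 6 alpha-type and embryonic beta-type probes were lower under each of the 8 alternatives, at log2 differences from -2.49 to -1.74, and 6 globin probes were at least 2-fold apart on both arrays in each alternative that kept all arrays. With normexp background correction 700 of all probes and 7 of the 8 globin probes passed limma's test (all but Hbb-b2), a setting in which limma gave every probe 1 shared standard error of 0.45. For the probes that passed, adjusted p ran from 6.05e-05 with normexp to 0.776 over the alternatives, in limma's test. With no filter on dim probes 551 of all probes passed and 0 globin probes. Under the other 4 alternatives with a test, 0 probes passed, with 2164 to 2687 at an unadjusted p under 0.05. Leaving out a Tie-2-Etv2 replicate gave 0.64 to 3.93 for Hbb-b1, -0.18 to 2.31 for Hbb-b2, 2.14 to 5.55 for the adult minus embryonic beta contrast and 6 to 8 globin probes at least 2-fold apart. The Hbb-b2 difference reversed, to -0.18, without replicate 1. No paired analysis was possible because the labels number only the Tie-2-Etv2 samples. A slide block was not run because all arrays lay on 1 slide.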
